A study of Mus musculus with 9 samples.

Results

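The 36 genes of glycolysis and gluconeogenesis were read in PPTR cells, a mouse intrahepatic cholangiocarcinoma line, and in cells of the same line in which *Vcam1* had been knocked out. They were chosen by symbol, from the glucose transporters through the enzymes down to lactate, with the lactate transporters, the pyruvate dehydrogenase kinases and the enzymes particular to gluconeogenesis, and all 36 were found among the 55276 symbols of the count table. All cells carried the alleles Prom1CreERT2, Ptenflx/flx, Tp53flx/flx and Rosa-ZsGreen and were grown as monocultures in serum-supplemented medium. RNA was sequenced from the control culture (WT in the labels) and from the *Vcam1* knockout lines KO1 and KO2, each grown from a single cell after cutting exon 2 of *Vcam1* with Cas9, in 3 libraries per condition taken at different passages, 9 in all. The 6 knockout libraries therefore stand for 2 clones. Whether the control culture was itself grown from a single cell is not given in the sources used here, and what differs between single clones cannot be told apart from the knockout. Cre in this model follows *Prom1*, the gene of a stem and progenitor cell surface protein.

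Glycolysis splits glucose into pyruvate in the cytosol, with transport, hexokinase, phosphofructokinase and pyruvate kinase as its usual control points. Pyruvate then either becomes lactate, which leaves through the proton-coupled transporters of the *Slc16a* family, or enters the mitochondrion, where pyruvate dehydrogenase is held back by the 4 kinases *Pdk1* to *Pdk4*. Hepatocytes also run the path backwards, with fructose bisphosphatase, PEP carboxykinase and glucose 6-phosphatase as the hallmark enzymes. For the forward step from PEP to pyruvate they use the liver and red cell pyruvate kinase. Bile duct and tumor cells mostly use the ubiquitous forms.

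Totals lay between 53415907 and 125223073 counts per library. *Vcam1* stood at 221 to 329 CPM (CPM being a gene's count relative to the library's total, after TMM scaling) in WT, at 92.4 to 128 in KO1 and at 83.0 to 119 in KO2, so that the mean of the clones was 40.0% and 37.7% of that of WT (log2 fold change -1.36, adjusted p = 2.1e-04). Of the 10 biliary markers 9 could be tested, of which 6 were lower and 1 (*Spp1*) higher in the clones. This was 77.8% with an adjusted p under 0.05, against 43.0% of all genes. The median log2 fold change of the tested markers was -10.00 over both clones. The list, *Spp1* included, summed to 13110 to 14835 CPM in WT, 10616 to 11076 in KO1 and 7634 to 11082 in KO2. *Krt19* (2129 to 2406 CPM in WT), *Krt8*, *Krt18* and *Epcam* were at or below 0.497 CPM in every clone library, *Cftr* was at or below 0.0209, while *Sox9* and *Spp1* stood at 107 CPM or more in all libraries. The 10 fibroblast markers summed to 427 to 829 CPM in WT, 12552 to 15969 in KO1 and 6761 to 9101 in KO2. Of the 8 tested, 7 were higher in the clones (87.5%, against 43.0% of all genes), while *Lum* and *Thy1* stayed at or below 2.35 CPM. The exception, *Dcn*, was lower in KO1 than in WT (58.3 to 105 CPM in WT, 2.16 to 8.35 in KO1, 51.7 to 113 in KO2). The 10 hepatocyte markers summed to 1747 to 3224 CPM in WT and to 63.5 to 163 in the clones, of which *Trf* (transferrin) alone was 1578 to 2983 CPM in WT and 1.41 to 6.45 in the clones, so that 1 gene carried most of the sum in WT. Muscle, haematopoietic and endothelial lists summed to 20.8 CPM or less in every library, with *Myod1* and *Myog* at 0. The part of these shifts in the results for the glycolytic genes was not tested. KO1 replicate 3 stood apart from the other KO1 libraries (chi-square per gene of 268 and 317, against 40.6 between replicates 1 and 2) and was low in *Mki67*, a proliferation gene (27.7 CPM, against 216 and 239). KO2 replicate 3 stood apart too (177 and 121, against 37.9 between the other KO2 libraries), with *Mki67* at 332 CPM against 178 and 180, and pairs of WT libraries gave 97.5 to 184. Counts are therefore also given without each of these libraries. In bulk RNA, fewer cells that express a gene and less RNA of it per cell cannot be told apart.

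33 of the 36 genes passed the filter on low counts, the exceptions being *Slc2a3*, *Pck1* and *G6pc*. Between all clone libraries and WT, 4 rose (*Pgam2*, *Ldhb*, *Pdk3* and *Pdk4*) and 8 fell (*Slc2a1*, *Aldoc*, *Eno2*, *Eno3*, *Pklr*, *Slc16a3*, *Fbp2* and *Pck2*) at an adjusted p under 0.05 (quasi-likelihood test of edgeR, adjusted after Benjamini and Hochberg over 17672 genes, as for every adjusted p here). This was 36.4% of the tested members, below the 43.0% of all tested genes that were called in that comparison (21.7% higher and 21.2% lower). The clone and WT libraries did not overlap for 13 of the 33 genes, where 44.2% of all genes did not. Their median log2 fold change was -0.31, against 0.07 over all genes. When the contrasts of the single clones were averaged instead, so that the spread between clones did not count, 6 rose and 16 fell, where 59.2% of all genes were called.

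Each clone was also read on its own. In KO1, 8 members were higher and 18 lower than in WT (78.8%, against 59.9% of all genes, 29.9% higher and 30.0% lower), with a median log2 fold change of -0.57 against 0.02 over all genes. In KO2, 5 were higher and 9 lower (42.4%, against 51.4% of all genes, 25.3% higher and 26.1% lower), with a median of -0.20 against 0.00. Between the clones themselves, 8 members were higher and 15 lower in KO1 than in KO2 (69.7%, against 38.7% of all genes, 20.2% higher and 18.5% lower). Libraries did not overlap for 27 members in KO1 against WT (66.0% of all genes), for 19 in KO2 against WT (62.1%) and for 25 between the clones (54.9%). Without KO1 replicate 3 the counts of calls were 8 and 19 for KO1 against WT (56.7% of all genes), 6 and 10 for KO2 against WT (55.5%), and 6 and 13 between the clones (32.7%). Without KO2 replicate 3 they were 8 and 19 (58.7%), 4 and 8 (44.9%), and 6 and 13 (30.4%). Over both clones the counts were 4 and 9 without the first of these libraries (44.7%) and 5 and 9 without the second (42.0%). Both clones were set against the same WT libraries, and of the members called in both, 3 were higher in both (*Ldhb*, *Pdk3* and *Pdk4*), 9 were lower in both and 0 went opposite ways. How often all genes agree between the clones in this way was not counted, so these counts have no share to stand beside. The members took 1.79 to 2.07% of all counts in WT, 1.15 to 1.3% in KO1 and 1.72 to 1.8% in KO2.

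**Figure D1:**
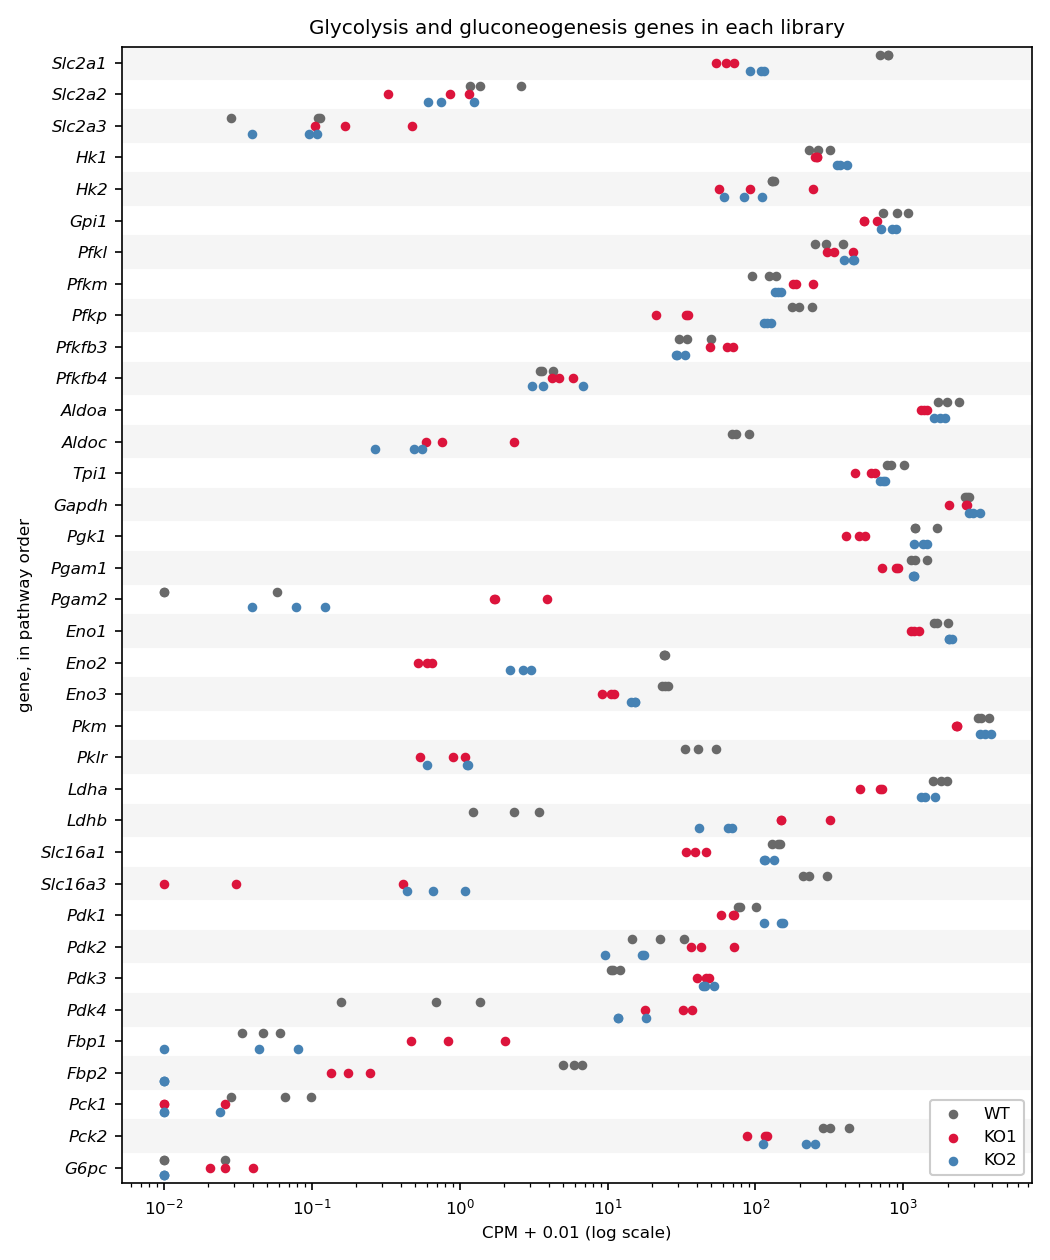
CPM + 0.01 on a log axis for the 36 genes, top to bottom in pathway order; each point is 1 library (3 of WT, 3 of KO1, 3 of KO2). *Slc2a1*, *Aldoc*, *Pklr*, *Slc16a3* and *Fbp2* lie far to the left of WT in both clones, *Ldhb* (1.23 to 3.45 CPM in WT) and *Pdk4* far to the right, while *Gapdh* stays between 2043 and 3307 CPM.

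The sequences before the starts of 5 members of glucose uptake and the lactate branch, on which the results below turn, are shown here, the glucose transporter *Slc2a1* and the lactate exporter *Slc16a3* (both lower in the clones), *Ldha* and *Ldhb* (the dehydrogenase pair) and *Pdk3* (higher in both clones). Each is the 200 bases before a RefSeq transcription start (GRCm38), 5′ to 3′ on the gene's strand, and capitals mark ACGTG or GCGTG on either strand, the cores of the hypoxia response element. Of 2 starts of *Ldha*, the first is shown.
Slc2a1, chr4:119108545-119108744, plus strand: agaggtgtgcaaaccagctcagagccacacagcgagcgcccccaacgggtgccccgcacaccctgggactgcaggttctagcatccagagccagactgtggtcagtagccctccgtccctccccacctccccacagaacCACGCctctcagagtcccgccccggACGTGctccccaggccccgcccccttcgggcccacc
Slc16a3, chr11:120948867-120949066, plus strand: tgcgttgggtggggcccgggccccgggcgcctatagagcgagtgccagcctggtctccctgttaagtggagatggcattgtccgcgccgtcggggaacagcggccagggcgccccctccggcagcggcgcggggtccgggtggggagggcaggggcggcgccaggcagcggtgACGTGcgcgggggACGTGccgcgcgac
Ldha, chr7:46845604-46845803, plus strand: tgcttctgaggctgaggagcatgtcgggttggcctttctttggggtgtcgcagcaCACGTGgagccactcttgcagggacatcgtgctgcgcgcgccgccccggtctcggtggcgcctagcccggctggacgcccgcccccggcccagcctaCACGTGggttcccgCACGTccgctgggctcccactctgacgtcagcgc
Ldhb, chr6:142507958-142508157, minus strand: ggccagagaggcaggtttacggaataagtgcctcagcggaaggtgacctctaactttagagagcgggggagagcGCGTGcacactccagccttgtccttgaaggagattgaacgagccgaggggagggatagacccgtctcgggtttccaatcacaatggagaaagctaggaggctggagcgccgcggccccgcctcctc
Pdk3, chrX:93832151-93832350, minus strand: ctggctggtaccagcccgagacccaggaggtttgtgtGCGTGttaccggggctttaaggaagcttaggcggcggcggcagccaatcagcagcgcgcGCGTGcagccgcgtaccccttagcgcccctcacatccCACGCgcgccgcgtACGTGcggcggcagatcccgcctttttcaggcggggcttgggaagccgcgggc

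In windows of 300 bases (250 before the start and 50 after), ACGTG was found on either strand in 20 of the 50 promoters of the 35 members that RefSeq lists and in 19.6% of all 32851 promoters, and GCGTG in 24 of the 50 and 32.4% of all promoters. CACGTG, the E-box that carbohydrate- and Myc-family factors use, holds ACGTG on both strands and stood in 6 of the 50 and 7.15% of all promoters. In the 200 bases shown, *Slc16a3*, which fell, had 2 ACGTG, *Slc2a1*, which fell, had 1 of each core, *Pdk3*, which rose, had 1 ACGTG and 3 GCGTG, and *Ldha* had 5 ACGTG, 4 of which lie in its 2 CACGTG. *Ldhb* held 1 GCGTG and 0 ACGTG. Whether these letters go with the direction of change was not tested. The HNF4 element (CAAAGTCCA) was in 0 members, *Pklr* included, and in 0.475% of all promoters, which says only that these letters are not in these windows. CpG dinucleotides numbered 36 in the 300 bases of *Slc16a3*, 35 in *Pdk3*, 30 in *Ldha*, 18 in *Slc2a1* and 17 in *Ldhb*, where the median promoter has 7.

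Glucose uptake came first. *Slc2a1* (GLUT1, the ubiquitous transporter) read 697, 784 and 791 CPM in WT, 63.0, 71.1 and 54.1 in KO1 and 109, 115 and 92.0 in KO2. Every clone library lay far below every WT library and the clones did not overlap. The log2 fold change was -3.17 (SE 0.24, adjusted p = 1.0e-05) over both clones, -3.59 (SE 0.15) in KO1 and -2.85 (SE 0.15) in KO2, and the clones differed by -0.75 (SE 0.14, adjusted p = 0.0028). *Slc2a2* (GLUT2, the liver and islet transporter) was at 1.16, 1.37 and 2.59 CPM in WT, 0.853, 1.15 and 0.319 in KO1 and 0.600, 0.735 and 1.24 in KO2, a log2 difference of -1.06 that did not pass the test after adjustment (unadjusted 95% CI -2.04 to -0.07, adjusted p = 0.078). It passed with DESeq2 (adjusted p = 0.039). *Slc2a3* (GLUT3, mainly of neurons) stayed at or below 0.464 CPM and was not tested. Per kilobase of transcript, *Slc2a1* made up 98.6% or more of the 3 transporters in each library, so that the family sum fell from 233 ± 16.2 CPM per kb (SD, n = 3) in WT to 19.4 ± 2.69 in KO1 and 32.5 ± 3.61 in KO2.

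Of the hexokinases, which trap glucose in the cell, neither fell over both clones. *Hk1*, the housekeeping form, was at 231 to 321 CPM in WT, 251 to 261 in KO1 and 355 to 414 in KO2. It was higher in KO2 than in WT by 0.48 on the log2 scale (adjusted p = 0.014), and the log2 difference of KO1 to KO2 was -0.57 (adjusted p = 0.0093). The call in KO2 against WT was lost without WT replicate 1 (adjusted p = 0.052), WT replicate 2 (0.057) or KO2 replicate 3 (0.067). *Hk2*, the inducible form, read 129, 129 and 134 CPM in WT, 57.0, 91.7 and 244 in KO1 and 110, 83.4 and 61.7 in KO2. KO1 replicate 3 alone was high, and 5 of the 6 clone libraries lay below WT. With it the log2 fold change over both clones was -0.28 (adjusted p = 0.62), and without it -0.69 (adjusted p = 0.026), in KO1 alone -0.81 (adjusted p = 0.023) and in KO2 -0.62 (adjusted p = 0.041). *Gpi1*, the isomerase that follows, was at 733 to 1073 CPM in WT, 541 to 659 in KO1 and 701 to 892 in KO2, lower in KO1 than in WT (log2 fold change -0.64, adjusted p = 0.0093). Its log2 difference between clones was -0.48 (adjusted p = 0.049), which did not pass without KO1 replicate 1 (0.11), KO1 replicate 2 (0.13), KO2 replicate 1 (0.094), KO2 replicate 2 (0.15) or WT replicate 1 (0.069), nor with upper-quartile scaling (0.081) or a filter at 1 CPM on average (0.068).

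Phosphofructokinase differed in its makeup, while its summed level lay within the spread of the libraries. *Pfkl*, the liver type, read 302, 252 and 389 CPM in WT, 342, 304 and 459 in KO1 and 454, 467 and 398 in KO2, with a log2 difference of 0.36 (adjusted p = 0.16, 95% CI -0.07 to 0.80). *Pfkp*, the platelet type that many proliferating cells use, read 196, 177 and 240 CPM in WT, 34.1, 35.2 and 21.4 in KO1 and 120, 127 and 115 in KO2. It fell in KO1 by 2.76 on the log2 scale (adjusted p = 3.6e-06) and in KO2 by 0.76 (adjusted p = 0.0081), and the clones differed by -2.00 (adjusted p = 9.6e-05). Over both clones together the log2 fold change of *Pfkp* was -1.44 (SE 0.55) with an adjusted p of 0.060, since the spread between clones counts there. It passed with limma-voom (adjusted p = 0.037), DESeq2 (0.025), upper-quartile scaling (0.047), without KO2 replicate 2 (0.044) and with the clone contrasts averaged (1.1e-05). *Pfkm*, the muscle type, was at 95.0 to 138 CPM in WT, 180 to 244 in KO1 and 135 to 148 in KO2, higher in KO1 by 0.78 (log2, adjusted p = 0.0025). Per kilobase, *Pfkl* held 47.2 to 49.6% of the family in WT, 53.4 to 57.8% in KO1 and 57.4 to 61.6% in KO2, *Pfkm* 22.8 to 25.1%, 39.4 to 41.0% and 23.7 to 27.7%, and *Pfkp* 27.6 to 29.8%, 2.42 to 5.57% and 14.7 to 14.9%. The family sum was 175 ± 33.6 CPM per kb in WT, 177 ± 31.9 in KO1 and 196 ± 9.73 in KO2. The liver type was therefore the most abundant phosphofructokinase transcript in all 9 libraries. *Pfkfb3*, which makes the activator of phosphofructokinase, read 30.6, 34.5 and 50.2 CPM in WT, 64.2, 49.4 and 70.8 in KO1 and 33.5, 29.0 and 29.3 in KO2. It was higher in KO1 than in KO2 by 1.01 (log2, adjusted p = 0.0039) and higher than in WT by 0.68 (adjusted p = 0.015), the latter lost without WT replicate 1 (0.060), WT replicate 2 (0.076) or KO1 replicate 1 (0.060). *Pfkfb4* stayed between 3.08 and 6.85 CPM and passed no test.

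Of *Aldoa*, *Tpi1*, *Gapdh*, *Pgk1*, *Pgam1*, *Eno1* and *Pkm*, the ubiquitous or single-form enzymes from aldolase to pyruvate kinase, all but *Gapdh* were lower in KO1 than in WT, with log2 fold changes of -0.56 to -1.48, and 0 of the 7 were called in KO2 against WT. The difference between the clones itself was not called for *Aldoa* (log2 difference -0.35, adjusted p = 0.088), *Tpi1* (-0.34, adjusted p = 0.11) or *Gapdh*, and was called for the other 4. *Pgk1*, the first enzyme of the path that makes ATP, differed most between the clones among these 7 genes. It read 1189, 1204 and 1680 CPM in WT, 546, 504 and 407 in KO1 and 1441, 1361 and 1185 in KO2. Its log2 fold change was -1.48 (SE 0.18, adjusted p = 9.2e-05) in KO1 and -0.03 (95% CI -0.43 to 0.37, adjusted p = 0.90) in KO2, and the difference between clones was -1.45 (SE 0.18, adjusted p = 3.5e-04). *Gapdh*, a common reference gene, was at 2694 ± 80.8, 2466 ± 367 and 3017 ± 269 CPM (SD, n = 3 each) in WT, KO1 and KO2, a log2 difference of 0.02 over both clones (95% CI -0.34 to 0.39). *Pkm*, the ubiquitous pyruvate kinase, read 3325, 3189 and 3819 CPM in WT, 2309, 2276 and 2308 in KO1 and 3317, 3578 and 3891 in KO2. It was lower in KO1 by 0.58 (log2, adjusted p = 0.0037) and differed between clones by -0.65 (adjusted p = 0.0044). *Eno1* followed the same order, at 1609 to 1992, 1129 to 1272 and 2031 to 2122 CPM, with a difference between clones of -0.79 (adjusted p = 0.0014). Many of these genes share sequence with pseudogenes or copies, which kallisto can split: 84.1% of the 31-base words of *Gapdh*, 77.2% of those of *Eno1*, 68.3% of *Pgk1*, 50.9% of *Pkm*, 42.1% of *Pgam1*, 34.2% of *Aldoa* and 18.2% of *Tpi1* also occur in another annotated gene.

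Of the brain and muscle isozymes of the same steps, *Aldoc* and *Eno2* moved much further in both clones and *Pgam2* in KO1, while *Eno3* did not. *Aldoc*, the brain aldolase, read 74.2, 69.2 and 90.3 CPM in WT, 0.749, 0.584 and 2.31 in KO1 and 0.257, 0.481 and 0.547 in KO2, a log2 fold change of -6.57 (SE 0.60, adjusted p = 3.0e-05). *Eno2*, the neuronal enolase, read 24.2, 23.9 and 24.6 CPM in WT, 0.644, 0.511 and 0.591 in KO1 and 3.03, 2.69 and 2.17 in KO2, with a log2 fold change of -3.92 (SE 0.59, adjusted p = 6.7e-04) and a difference between clones of -2.18 (adjusted p = 3.6e-05). *Eno3*, the muscle enolase, read 24.4, 25.8 and 23.5 CPM in WT, 10.6, 9.23 and 11.0 in KO1 and 14.3, 15.4 and 15.4 in KO2, a log2 fold change of -0.96 (SE 0.19, adjusted p = 0.0030). None of the clone libraries reached the WT range for these 3 genes. *Pgam2*, the muscle mutase, read 0.0478, 0 and 0 CPM in WT, 1.71, 1.73 and 3.91 in KO1 and 0.0685, 0.113 and 0.0296 in KO2. It was thus higher in KO1 (adjusted p = 1.0e-04), with KO2 overlapping WT. With so few counts in WT the size is uncertain, and the fitted log2 fold change was 6.73, with values of 6.22 to 10.40 over the alternatives and the highest without WT replicate 1. Its call over both clones (adjusted p = 0.037) was lost without WT replicate 1 (0.074), WT replicate 2 (0.11), WT replicate 3 (0.11), KO1 replicate 1 (0.057) or KO1 replicate 2 (0.056), and with limma-voom (0.11). These isozymes were minor forms already in WT, where *Aldoc* held 2.05 to 2.18% of the sum of *Aldoa* and *Aldoc* per kilobase and *Eno2* 0.874 to 1.04% of enolase. The level of the family was set by *Aldoa* (97.8% or more in each library) and *Eno1* (96.9% or more).

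The liver isozymes were compared with the forms that other tissues use. Of the 6 liver-type members (*Slc2a2*, *Pfkl*, *Pklr*, *Fbp1*, *Pck1* and *G6pc*) 4 could be tested, and over both clones 1 fell (*Pklr*) and 3 were not called. Of the 18 ubiquitous or single-form members 1 rose (*Ldhb*), 2 fell (*Slc2a1* and *Pck2*) and 15 were not called. Of the 6 muscle or brain forms 1 rose (*Pgam2*) and 4 fell, beside 43.0% of all genes called. *Ldhb*, the heart type of its family, was counted among the ubiquitous forms. *Slc2a3*, *Hk2*, *Pfkfb4*, *Slc16a3*, *Pdk3* and *Pdk4* were placed in none of these classes. Of that remainder, *Slc16a3* fell and *Pdk3* and *Pdk4* rose over both clones. The classes read differently in KO1 alone, where 3 of the 18 were higher and 12 lower than in WT, 1 of the 4 liver types was higher and 1 lower, and 2 of the 6 muscle or brain forms were higher and 4 lower (59.9% of all genes called). In KO2 the counts were 3 and 3 of the 18, 0 and 1 of the 4, and 0 and 4 of the 6 (51.4% of all genes). *Pklr*, the liver and red cell pyruvate kinase, read 40.8, 33.5 and 54.0 CPM in WT, 1.08, 0.887 and 0.527 in KO1 and 1.13, 1.12 and 0.592 in KO2, a log2 fold change of -5.59 (SE 0.29, adjusted p = 1.5e-06). The clones differed by -0.18 (95% CI -0.92 to 0.56, adjusted p = 0.69). Its share of pyruvate kinase per kilobase went from 0.873 to 1.17% in WT to 0.0392% or less in the clones. The WT libraries thus held a low level of this liver isozyme and the clones hardly any, while the liver-type *Pfkl* was at 252 CPM or more in all libraries. Regulators known to drive such genes in hepatocytes were read beside them, and their part in these results was not tested. *Hnf4a* (207 to 264 CPM in WT) had 0 counts in all 6 clone libraries, *Foxa2* was at 50.2 to 68.5 CPM in WT and at or below 3.46 in the clones, and *Mlxipl* (ChREBP, the glucose-sensing factor) at 4.41 to 8.01 CPM and at or below 0.240. In that list of 21 regulators 5 rose and 9 fell (66.7%, against 43.0% of all genes). Among those that rose were *Foxa1* (log2 fold change 4.14, adjusted p = 3.4e-06), *Ppargc1a*, a coactivator of gluconeogenic genes (2.44, adjusted p = 0.013), *Cebpa* (1.45, adjusted p = 0.033) and *Mlxip* (1.03, adjusted p = 0.0037).

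Of the enzymes of gluconeogenesis, *G6pc*, *Pck1*, *Fbp1* and *Fbp2* were sparse in WT already, at 6.69 CPM or less, and *Pck2* and *Pcx* were not. *G6pc* and *Pck1*, the last and the first enzyme particular to the path in liver, were at or below 0.0299 and 0.0885 CPM in all libraries and were not tested. *Fbp1*, the liver fructose bisphosphatase, read 0.0239, 0.0369 and 0.0506 CPM in WT, 0.824, 0.459 and 2.01 in KO1 and 0.0343, 0.0707 and 0 in KO2, higher in KO1 than in WT by 4.87 on the log2 scale (adjusted p = 6.6e-04) at a level that stayed near or below 2 CPM. *Fbp2*, the muscle form, read 5.00, 5.89 and 6.69 CPM in WT, 0.165, 0.125 and 0.239 in KO1 and 0, 0 and 0 in KO2. It was the more abundant of the pair in WT, at least 128-fold lower in KO2 (against a limit of 3 counts per library), and fell by 5.06 on the log2 scale in KO1 (adjusted p = 1.2e-05). *Pck2*, the mitochondrial PEP carboxykinase that most tissues express, read 319, 431 and 288 CPM in WT, 120, 116 and 88.2 in KO1 and 220, 251 and 113 in KO2. Its log2 fold change was -1.19 (SE 0.33, adjusted p = 0.017) and the call was lost without WT replicate 2 (log2 fold change -1.05, adjusted p = 0.072). The fall in KO2 (log2 fold change -0.83, adjusted p = 0.033) was lost without WT replicate 1 (0.058), WT replicate 2 (0.095) or KO2 replicate 3 (0.051). *Pck2* made up 99.9% or more of the pair in each library. *Pcx*, pyruvate carboxylase, which starts the path from pyruvate, went the other way, from 33.3, 29.9 and 35.5 CPM in WT to 325, 346 and 591 in KO1 and 91.4, 95.9 and 110 in KO2 (log2 fold change 2.98, adjusted p = 0.0075).

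**Figure D2:**
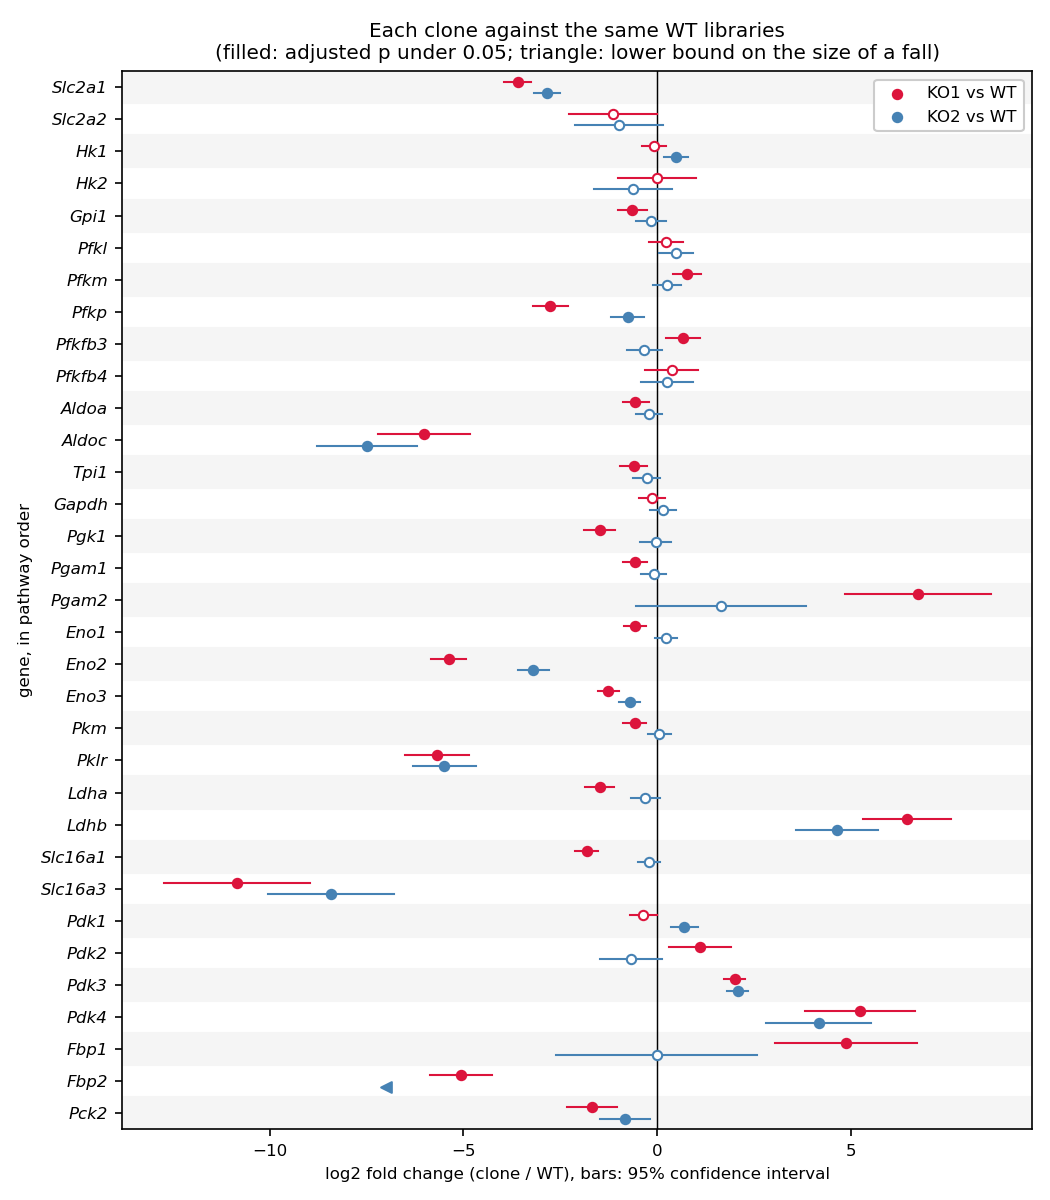
Log2 fold change of each clone against the same 3 WT libraries for the 33 tested genes, with 95% confidence intervals (points filled where the adjusted p is under 0.05); the triangle is a bound for *Fbp2* in KO2, where no read was counted. *Slc2a1*, *Aldoc*, *Eno2*, *Pklr*, *Slc16a3* and *Fbp2* lie left of 0 and *Ldhb*, *Pdk3* and *Pdk4* right of 0 in both clones, while *Pgk1*, *Ldha* and *Slc16a1* are filled and left of 0 for KO1, with open points for KO2.

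At the lactate step the subunits of lactate dehydrogenase moved in opposite directions in KO1. *Ldhb*, the heart type that favors pyruvate, read 3.45, 2.33 and 1.23 CPM in WT, 148, 149 and 321 in KO1 and 65.1, 69.9 and 41.6 in KO2. No clone library came near the WT range and the clones did not overlap. The log2 fold change was 5.82 (SE 0.84, adjusted p = 5.1e-04), 6.45 in KO1 and 4.64 in KO2, with a difference between clones of 1.81 (SE 0.41, adjusted p = 0.0074). *Ldha*, the form that favors lactate, read 1577, 1808 and 1969 CPM in WT, 718, 690 and 509 in KO1 and 1311, 1402 and 1639 in KO2. It fell in KO1 by 1.48 on the log2 scale (adjusted p = 6.4e-05), in KO2 the difference was -0.30 (95% CI -0.68 to 0.08, adjusted p = 0.17), and the clones differed by -1.18 (adjusted p = 7.5e-04). Per kilobase, *Ldhb* went from 0.0869 to 0.304% of the family in WT to 22.3, 23.1 and 46.7% in the KO1 libraries and 3.41 to 6.49% in KO2, the highest value being KO1 replicate 3. The family sum was 985 ± 108 CPM per kb in WT, 510 ± 16.1 in KO1 and 844 ± 82.9 in KO2. *Ldhb* shares 41.4% of its 31-base words with 1 other gene, the pseudogene *Gm5514*, and *Ldha* shares 34.2%.

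Of the lactate transporters, *Slc16a3* was lower in both clones, and *Slc16a1* was lower in KO1 than in WT and than in KO2. *Slc16a3* (MCT4, the exporter of glycolytic cells) read 231, 208 and 303 CPM in WT, 0.404, 0.0209 and 0 in KO1 and 0.428, 0.650 and 1.08 in KO2. The gene was near absent from every clone library, with a log2 fold change of -9.18 (SE 0.97, adjusted p = 7.5e-05). The clones differed by -2.44 (adjusted p = 0.040), a call at such low counts that was lost without WT replicate 1 (0.060), WT replicate 3 (0.052), KO1 replicate 2 (0.11), KO1 replicate 3 (0.073), KO2 replicate 2 (0.080) or KO2 replicate 3 (0.12), and with DESeq2 (0.081). *Slc16a1* (MCT1, which carries lactate both ways) read 130, 146 and 142 CPM in WT, 38.7, 46.0 and 33.7 in KO1 and 116, 114 and 133 in KO2. It was lower in KO1 by 1.82 (log2, adjusted p = 3.6e-06), differed by -0.21 in KO2 (95% CI -0.50 to 0.08, adjusted p = 0.21) and by -1.61 between clones (adjusted p = 3.4e-05). Per kilobase, *Slc16a3* held 59.3 to 68.5% of the pair in WT and at most 1.05% in the clones. The sum of the pair was 88.5 ± 11.7 CPM per kb in WT, 8.95 ± 1.40 in KO1 and 27.5 ± 2.43 in KO2, and in WT it was 135 ± 20.9 with the median in place of the longest transcript. *Slc16a7* (MCT2), a transporter outside the 36, went the other way at a low level, from 0.0759 to 0.183 CPM in WT to 0.887 to 2.38 in the clones (log2 fold change 3.55, adjusted p = 3.0e-04).

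**Figure D3:**
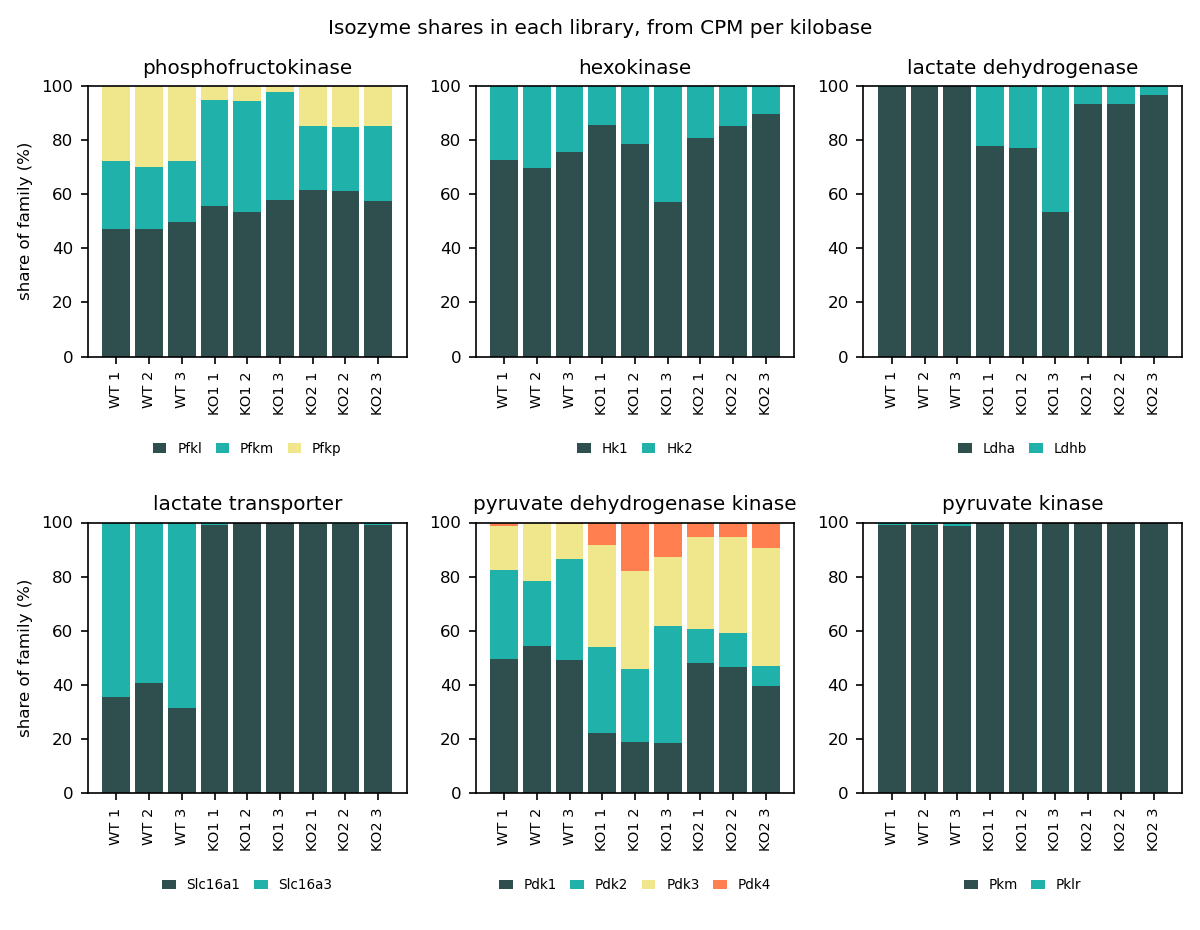
Share of each isozyme in its family, in percent of the family's CPM per kilobase, as stacked bars for the 9 libraries; 6 families are shown. The lactate transporters turn from mostly *Slc16a3* in WT to *Slc16a1* in every clone library, *Ldhb* appears in the clones (46.7% in KO1 replicate 3), *Pfkp* shrinks to 2.42 to 5.57% in KO1, and *Pdk3* and *Pdk4* gain.

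The pyruvate dehydrogenase kinases were reordered too. *Pdk3* read 10.5, 12.1 and 10.9 CPM in WT, 48.5, 46.2 and 40.2 in KO1 and 44.2, 45.9 and 52.1 in KO2, a log2 fold change of 2.05 (SE 0.12, adjusted p = 3.4e-06) with 2.01 in KO1 and 2.08 in KO2 (log2 difference between clones -0.08, 95% CI -0.34 to 0.19, adjusted p = 0.63). *Pdk4*, which rises with fasting and fat use in muscle and liver, read 1.36, 0.148 and 0.683 CPM in WT, 18.0, 37.4 and 32.2 in KO1 and 11.8, 11.7 and 18.3 in KO2 (log2 fold change 4.85, SE 0.76, adjusted p = 8.3e-04). These 2 kinases were higher in every clone library than in every WT library. *Pdk1* read 78.6, 75.7 and 101 CPM in WT, 70.2, 58.8 and 71.1 in KO1 and 154, 148 and 115 in KO2, higher in KO2 than in WT by 0.70 (log2, adjusted p = 0.0044) and lower in KO1 than in KO2 (log2 difference -1.06, adjusted p = 9.4e-04). *Pdk2* read 22.7, 14.6 and 32.9 CPM in WT, 43.1, 36.4 and 71.1 in KO1 and 17.6, 17.0 and 9.54 in KO2, higher in KO1 than in KO2 by 1.77 (log2, adjusted p = 0.0047). Its call in KO1 against WT (log2 fold change 1.10, adjusted p = 0.023) was lost without WT replicate 1 (0.067), WT replicate 2 (0.090) or KO1 replicate 3 (0.082). Beside *Pdk3* and *Pdk4*, *Pdk2* was thus called in KO1 and *Pdk1* in KO2. The kinases summed to 32.3 ± 6.48 CPM per kb in WT, 64.9 ± 7.60 in KO1 and 59.8 ± 3.01 in KO2, in which *Pdk1* held 49.3 to 54.3%, 18.6 to 22.3% and 39.4 to 48.0%.

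A list of 10 genes covered the mitochondrial pyruvate carrier, pyruvate dehydrogenase and the phosphatases that reactivate it. Over both clones 5 rose and 1 fell (60.0%, against 43.0% of all genes). Both subunits of the carrier rose: *Mpc1* from 34.0 to 38.2 CPM in WT to 67.7 to 92.9 in the clones (log2 fold change 1.07, adjusted p = 1.3e-04) and *Mpc2* from 25.5 to 26.6 to 45.1 to 96.2 (1.23, adjusted p = 0.0035). *Pdha1* (0.59, adjusted p = 0.014) and *Pdhb* (0.35, adjusted p = 0.028), subunits of pyruvate dehydrogenase, rose too. *Pdpr*, which restrains the phosphatase that reactivates pyruvate dehydrogenase, rose (1.09, adjusted p = 0.032) and *Pdp2*, one such phosphatase, fell (-0.92, adjusted p = 0.0097).

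**Figure D4:**
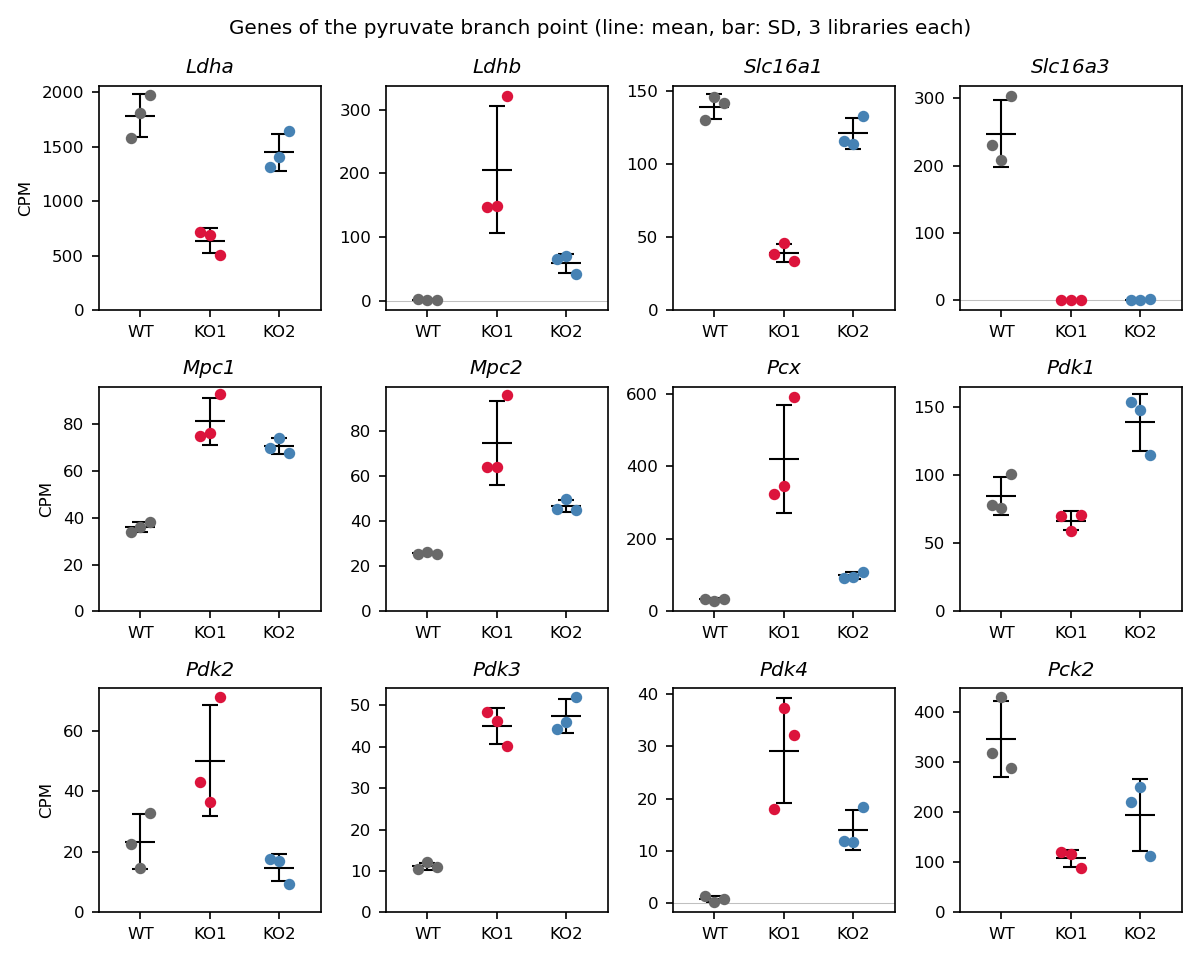
CPM of 12 genes at the pyruvate branch point in each library (points), with the mean (line) and SD (bar) of 3 libraries; the vertical scales differ. *Ldhb*, *Mpc1*, *Mpc2*, *Pcx*, *Pdk3* and *Pdk4* are above WT in both clones, *Slc16a3* and *Pck2* below, and *Ldha* and *Slc16a1* are low in KO1 while KO2 stays near WT.

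The neighbouring paths were read from lists of their own. Among 30 other isozymes and enzymes of the pathway 21 were tested, and 3 rose and 7 fell (47.6%). *Bpgm*, which makes the metabolite that loosens oxygen from haemoglobin, rose by 1.29 on the log2 scale (adjusted p = 0.0060), and *Tigar*, which lowers the activator of phosphofructokinase, fell by 1.33 (adjusted p = 6.3e-04). *Ldhd*, the D-lactate dehydrogenase of mitochondria, fell by 3.09 (adjusted p = 0.0020). In the pentose phosphate pathway, which branches off after hexokinase, 1 of 8 rose and 5 fell (75.0%, against 43.0% of all genes). The riser was *G6pdx*, the entry enzyme (log2 fold change 0.78, adjusted p = 0.0036), and *Rpia* fell most (-1.79, adjusted p = 7.5e-05), followed by *Pgd* (-0.69, adjusted p = 8.4e-04) and *H6pd* (-0.59, adjusted p = 0.0043). In fructose and glycogen handling 2 of 11 tested genes rose and 3 fell (45.5%), with *Khk*, the fructokinase, down (log2 fold change -2.90, adjusted p = 1.7e-04) and *Sord* and *Ugp2* higher (1.04, adjusted p = 0.0045, and 1.07, adjusted p = 0.027). Of 19 genes of the hypoxia-inducible factor system and its targets outside glycolysis 4 rose and 5 fell (47.4%, near the 43.0% of all genes). Among those that fell, *Vegfa* was at 540 to 636 CPM in WT and 63.9 to 322 in the clones (log2 fold change -1.73, adjusted p = 0.020). *Ndrg1* was at 496 to 801 and 284 to 371 (adjusted p = 0.0010). The other falls were in *Ankrd37* (log2 fold change -0.84, adjusted p = 0.023) and in 2 genes of low level. These were *Adm* (-5.10, adjusted p = 3.1e-05), at 5.68 CPM or less, and *Car9* (-2.22, adjusted p = 0.028), at 0.812 CPM or less. The 4 that rose were *Vhl*, which marks the factor for destruction (0.85, adjusted p = 0.0032), *P4ha1* (0.64, adjusted p = 0.023), *Arnt* (0.42, adjusted p = 0.029) and *Kdm3a* (0.35, adjusted p = 0.035). The part of this system in the results for the glycolytic genes was not tested.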

How the data were processed

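Total RNA of 9 cultures (3 WT, 3 KO1 and 3 KO2, by their labels) was sequenced by the authors as stranded, paired-end mRNA libraries. Reads were pseudoaligned with kallisto 0.46.1 to the GENCODE transcriptome (GRCm38). The values deposited by the authors are estimated counts per gene symbol, not normalized. How transcripts were summed to symbols is not given in the sources used here. The deposited estimates were whole already (0 values were not), so rounding changed nothing, and 0 columns were left out.

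TMM factors and filterByExpr were taken from edgeR 4.0.16 in R 4.3.3, and 17672 of 55276 symbols passed. Adjusted p come from the quasi-likelihood test of edgeR, corrected over those genes after Benjamini and Hochberg, with a threshold of 0.05. The 6 knockout libraries were set against 3 WT libraries in a fit with 2 groups, and single clones were compared in a 3-group fit of all 9 libraries. The libraries of a clone are passages of 1 line, so p-values measure the spread between these cultures. Levels are CPM. Isozyme shares and family sums are in CPM per kilobase of the longest coding transcript, and shares carry no test. Lengths are those of GENCODE vM21, while the counts come from another release of that annotation. Sums of marker lists and the order of *Fbp1* and *Fbp2* were read in plain CPM, without regard to length. A limit of 3 counts per library was used for bounds, which, like the counts, cover counting error only. Totals of 53415907 to 125223073 counts left the precision to the spread between libraries.

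All 36 members are accounted for. Values in every library are printed for members called in KO vs WT or KO1 vs KO2 with a log2 change of at least 1 and a mean of at least 5 CPM in a condition, and for the liver-type members with their ubiquitous partners and the muscle forms beside them; from each other list at most 4 genes of that kind are named. Some results of these lists are not reported here. Markers, regulators, *Slc16a7*, the *Slc2a* genes outside the 36 and the further genes of the hypoxia and pyruvate dehydrogenase lists named beyond these were chosen after their values were seen. Ero1a, on the hypoxia list, was not found under that symbol. The members and lists were chosen with earlier results of these data known. Alternatives were limma-voom (limma 3.58.1), DESeq2 1.42.0, upper-quartile factors, no filter, a filter at 1 CPM on average, the omission of each library and the mean of the clones' contrasts. The fit was tested on simulated data in which both clones carried the same changes, so spread between clones was not part of that test. Promoters are RefSeq windows of 300 bases on GRCm38. Figures were drawn with matplotlib 3.10.9.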

Additional observations from a re-analysis of the deposited data

Results flagged for a closer look

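The effects of the clones on 23 of the 33 tested genes (69.7%, against 38.7% of all genes) differed by the test of the difference between KO1 and KO2 itself (edgeR's quasi-likelihood test, adjusted p under 0.05). Lower in KO1 than in KO2, as log2 differences, were *Slc2a1* (-0.75), *Hk1* (-0.57), *Gpi1* (-0.48), *Pfkp* (-2.00), *Pgk1* (-1.45), *Pgam1* (-0.47), *Eno1* (-0.79), *Eno2* (-2.18), *Eno3* (-0.55), *Pkm* (-0.65), *Ldha* (-1.18), *Slc16a1* (-1.61), *Slc16a3* (-2.44), *Pdk1* (-1.06) and *Pck2* (-0.85). Higher in KO1 were *Pfkm* (0.52), *Pfkfb3* (1.01), *Aldoc* (1.46), *Pgam2* (5.08), *Ldhb* (1.81), *Pdk2* (1.77), *Fbp1* (4.88) and *Fbp2* (6.73). Of these 23 calls, 17 passed under every alternative. Those lost under some were *Aldoc* (kept under 6 of 14), *Gpi1* (7), *Slc16a3* (7), *Pck2* (7), *Pfkm* (8) and *Pgam1* (11). The value for *Fbp2* is a fitted one against 0 counts in KO2 and depends on the prior count, and the bound is at least 3.86-fold. Those for *Pgam2* and *Fbp1* compare levels of 3.91 CPM or less, and those for *Aldoc* and *Slc16a3* levels of 2.31 CPM or less.

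Among the 6 clone libraries, 1 library lay far from the rest for *Hk2* (the gap was 0.717 of the range, with KO1 replicate 3 at 244 CPM) and for *Aldoc* (0.760 of the range, with KO1 replicate 3 at 2.31 CPM). Both flags fell on KO1 replicate 3, the library that stood apart from the other KO1 libraries, and 33 genes were read. A rate of about 1 such flag in 20 groups holds for values from 1 population. It does not apply to these 6 libraries, since 23 of the 33 genes differed between the clones.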

How the results depend on the processing

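The number of members lower in the clones went from 8 to 16 when the contrasts of both clones were averaged in place of pooling the 6 libraries, while the members higher went from 4 to 6. All other counts stayed within 1.5 times under every alternative. Over single genes, the call was the same in 463 of 493 values for KO vs WT, 449 of 460 for KO1 vs WT, 448 of 460 for KO2 vs WT and 418 of 460 for KO1 vs KO2. Direction counted only where a fit passed the threshold, so values that passed in neither fit were taken as the same whatever their sign. *Hk2* in KO1 against WT was reversed without KO1 replicate 3, with a log2 fold change of -0.81 in place of 0.00 (adjusted p = 0.023). Without 1 library at a time its value lay between -0.81 and 0.31. Leaving out 1 library gave 5583 to 8208 genes called over all genes for KO vs WT, 3 to 5 members higher and 7 to 9 lower, and 4943 to 7408 genes for KO1 vs KO2, with 6 to 8 members higher and 11 to 16 lower. With the median transcript length in place of the longest, an alternative chosen after seeing the data, the share of *Slc16a3* in WT went from 64.1 to 76.4% and the other mean shares, *Slc16a1* in WT aside, moved by 4 points or less, while the summed level of the pair in WT went from 88.5 to 135 CPM per kb. Upper-quartile factors shifted the median log2 fold change by -0.03. No paired analysis was possible because the labels give each library a number of its own and share none across groups.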
